A study of Drosophila melanogaster with 66 samples.

Results

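CG11034 is a Drosophila melanogaster gene on chromosome arm 2L, predicted from its sequence family to encode a dipeptidyl peptidase of the DPP4 kind. It was measured by 1 of the 18769 probe sets that carry fly sequence and is 1 of 11982 genes with a symbol in the table. The gene was chosen for its low level in all F1 test males, so the male values of the founder and F1 generations are given below as a description without a test. Tests are given for the females, for the F2 and F3 flies of both sexes, and for the sex differences outside F1, none of which the choice used. The tests themselves were chosen with earlier results of these data known.

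Peptidases of the DPP4 kind remove a pair of amino acids from the start of peptides whose next-to-first residue is proline or alanine. In mammals, DPP4 shortens incretins and other peptide hormones, and inhibitors of it are used to treat diabetes. The family also holds members that have lost the catalytic serine, such as mammalian DPP6 and DPP10, which act as partners of potassium channels. Whether the CG11034 protein is an active enzyme was not measured here.

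The series holds 66 Affymetrix 3' IVT arrays of RNA from whole adult flies, which form 20 groups of 3 or 4 arrays. The founders of the test lineage, F0, were rpr/cyo; dilp3/ser flies bred in a w1118 background. In these flies the ilp3-GAL4 driver and UAS-rpr (reaper, a gene that triggers cell death) together ablate the insulin-producing cells, and cyo and ser are the balancer chromosomes CyO-YFP and Ser-GFP. Crossing F0 test males to w1118 females gave 4 classes of F1 test flies. The class rpr/+; dilp3/+ carries both constructs and no balancer, rpr/+; ser/+ and cyo/+; dilp3/+ carry 1 construct and 1 balancer each, and cyo/+; ser/+ carries the balancers alone. Every F1 test fly therefore carries introduced chromosomes, and no F1 test class has the w1118 genotype. The sample labels give w1118 arrays of each sex as the F1 control, shared by the F0 and the F1 test flies. The design text speaks of w1118 flies as the F0 control and says that the offspring of the F1 control cross were not profiled, so the generation of these control arrays is not settled. They are called F1 control here, after the labels. F2 and F3 test flies descend from rpr/+; ser/+ males, were selected to be free of balancers, and are labelled w1118 without constructs, as are the F2 and F3 controls. Each array holds RNA of 80 to 90 flies that eclosed within 5 days, so an array is a pool and not a single fly.

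Levels are log2 GCRMA values (background-corrected probe intensities), on which a difference of 1 is a doubling. Fitted differences come from a limma model of all groups of a sex with the labelled batch as a term and are given with their SE. An entry, which is a gene or a probe set with no single gene symbol, is said to be called, to pass, to rise or to fall where its p, adjusted over all entries of the comparison, was under 0.05. The lowest value in the table was 2.23 and the highest 15.7. The median over all probe sets was 3.25 to 4.16 on 36 arrays of the F0 and F1 generations. It was 3.30 to 4.50 on 30 arrays of the later generations, whose test flies were compared only with controls of their own generation. Marker genes followed the labelled sex in the F0 and F1 arrays. The 10 testis genes averaged 10.46 to 11.53 on male arrays and 2.68 to 3.68 on female arrays, and the 8 yolk and eggshell genes averaged 10.01 to 12.95 on female arrays and 2.68 to 3.53 on male arrays. In F2, 3 arrays of batch 3 stood apart on the yolk and eggshell genes. F2 control male replicate 3 averaged 10.47 on them, against 2.59 to 2.71 on the other 7 F2 male arrays, while its testis genes averaged 11.14, within the range of the males. Replicate 2 averaged 5.51 in F2 control females and 8.34 in F2 test females, against 12.78 to 12.99 on the other 4 F2 female arrays. These 3 arrays bear on the F2 results and, through the batch term, on the F0 and F1 differences of females, so the values without them are given beside the results they change. Ilp2 and Ilp5, insulin-like peptide genes of the ablated cells, lay near the bottom of the scale in whole flies, with group means of 2.60 to 3.53 for Ilp2 and 2.34 to 2.46 for Ilp5 in the F0 and F1 groups. Neither passed the test in any comparison, so they give no check of the ablation on these arrays.

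CG11034 was low on every array of the flies that carry introduced chromosomes and high on every array of w1118 flies. The 30 F0 and F1 test arrays lay between 2.65 and 5.46, with a median of 3.85. The 36 arrays of the w1118 groups lay between 5.24 and 8.46, with a median of 7.25. Across both sexes the ranges overlapped because 1 male test array, at 5.46, exceeded 1 female control array, at 5.24. Within each sex all 15 F0 and F1 test arrays lay below all 3 F1 control arrays. In bulk RNA, fewer cells that express the gene and less RNA per cell cannot be told apart.

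**Figure D1:**
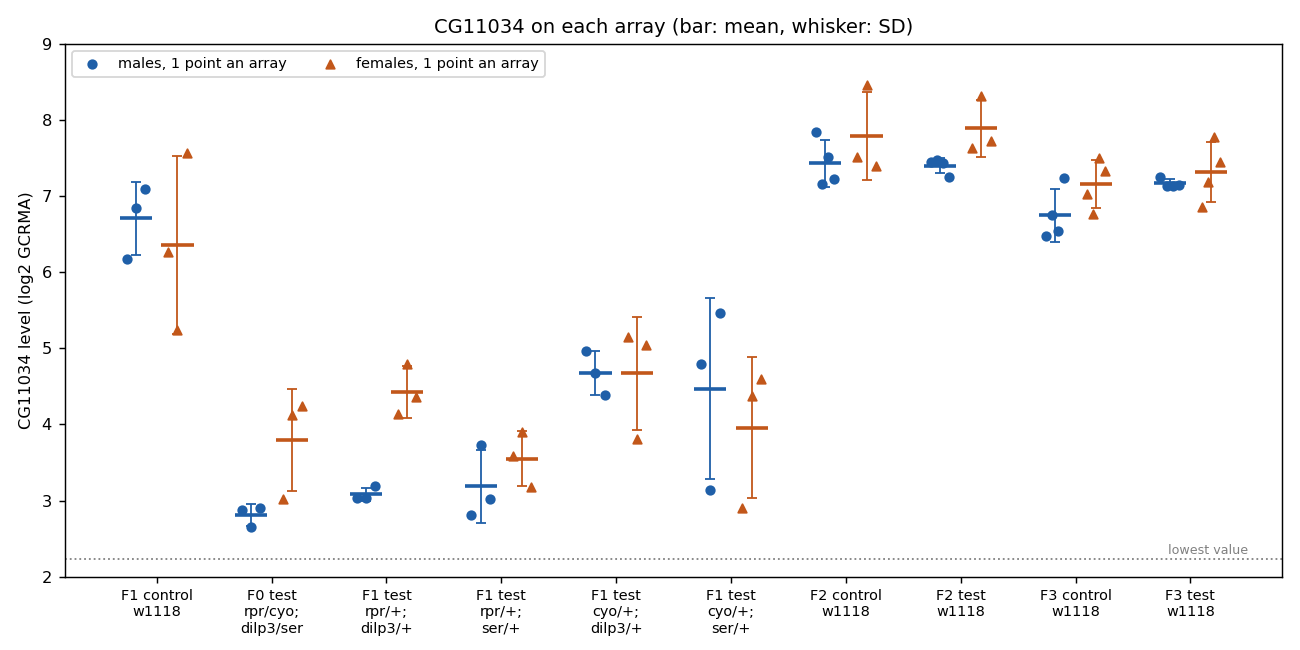
Level of CG11034 (log2 GCRMA) on each of the 66 arrays, by group, with circles for males, triangles for females, horizontal bars for group means and whiskers for the SD. The F0 and F1 test arrays sit at 2.65 to 5.46 and the F2 and F3 arrays of both lineages at 6.48 to 8.46; the dotted line marks the lowest value in the table.

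In males, 45 of 11357 entries tested (0.396%) had all 12 F1 test arrays below all F1 control arrays, and 42 (0.370%) had all 15 test arrays below them. The choice of CG11034 used the male arrays, so its place among these is not a result. In females, which the choice did not use, 15 of 12809 entries (0.117%) had all 12 F1 test arrays below the control arrays. All 15 test arrays lay below them for 13 entries (0.101%), and CG11034 was among both. In the other direction 19 (0.148%) and 15 (0.117%) lay above the controls. Exchanged labels place the 3 controls above all 12 F1 arrays in 1 of 455 splits, a share of 0.0022. The share of 0.117% is no larger than that, so a place among these entries is no support by itself. Of 10885 entries tested in both sexes, 3 (0.0276%) lay below control in all 30 test arrays when each sex was set against its own controls, and the choice of CG11034 fixed its place there as far as the males go. These were CG11034, mthl8, a gene of the methuselah-like receptor family on arm 3L, and qkr58E-1, an RNA-binding protein gene on arm 2R. The other 2 names were chosen after their values were seen. In the other direction 4 entries (0.0367%) lay above control in all 30 test arrays.

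In F1 control males CG11034 measured 6.17, 6.85 and 7.10 on the 3 arrays, a mean of 6.71 ± 0.48 (SD, n = 3). In F0 test males it measured 2.87, 2.65 and 2.90 (2.81 ± 0.14). The founder males were thus all near the bottom of the scale and far from every control array. The fitted difference was -3.83 ± 0.34 (SE), and no fold is given, since 1 of the 3 founder arrays lay within 0.5 of the lowest value in the table. In that comparison 3.43% of the entries tested were called. On the array, CG11034 stood at the 36.3 to 40.7 percentile of all entries in F0 males and at the 60.5 to 68.6 percentile in control males.

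Markers of the gut and the Malpighian tubule moved in the same founder males. The 10 measured midgut genes averaged 8.19 to 9.44 in F0 males against 10.41 to 10.87 in control males, and 3 of the 10 fell. The 5 measured tubule genes averaged 6.63 to 7.25 against 7.80 to 8.07, and 1 of 5 fell, or 2 without the F2 control male array that stood apart. Of all entries, 3.43% were called in F0 males, or 3.32% without that array. Males of the class rpr/+; dilp3/+ had midgut averages of 10.06 to 11.08, and tubule averages of 7.50 to 7.87, both overlapping the controls. In rpr/+; ser/+ males the midgut averages of 9.47 to 10.45 overlapped the controls and the tubule averages of 7.49 to 7.76 lay below them. In cyo/+; dilp3/+ males the midgut averages of 9.53 to 10.68 overlapped and the tubule averages of 7.42 to 7.60 lay below. In cyo/+; ser/+ males the midgut averages of 9.03 to 10.39 lay below and the tubule averages of 7.40 to 7.84 overlapped. No midgut or tubule gene passed in any F1 male class, beside 0.22% to 0.484% of all entries called. Positive differences were found for 6 of 10 midgut genes in rpr/+; dilp3/+ and for 2 in cyo/+; dilp3/+. They were found for 0 of 10 in rpr/+; ser/+, in cyo/+; ser/+ and in the mean of the 4 classes. The median difference over all entries was -0.01 to 0 in these comparisons. The part of these tissues in the level of CG11034 was not tested.

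Males with both constructs and no balancer, rpr/+; dilp3/+, measured 3.03, 3.03 and 3.19 for CG11034. Males of the class rpr/+; ser/+ measured 2.81, 3.73 and 3.02. Both classes lay far below the lowest control array and close to the founders, with group means of 3.08 ± 0.09 and 3.19 ± 0.48. This near the lowest value in the table, 2.23, differences between founders and these classes may be compressed. Males of the class cyo/+; dilp3/+ measured 4.97, 4.68 and 4.39, and cyo/+; ser/+ males measured 4.80, 3.14 and 5.46. These 2 classes without rpr lay between the rpr classes and the controls, with means of 4.68 ± 0.29 and 4.47 ± 1.19, or 4.08-fold and 4.73-fold below control as ratios of geometric means, and 1 array of cyo/+; ser/+ fell within the range of the rpr classes.

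The fitted differences from the F1 control males were -3.55 ± 0.34 in rpr/+; dilp3/+, -3.52 ± 0.33 in rpr/+; ser/+, -2.03 ± 0.33 in cyo/+; dilp3/+ and -2.11 ± 0.34 in cyo/+; ser/+. The shares of entries called were 0.220%, 0.484%, 0.282% and 0.396% in that order. These 4 differences and that of the F0 males share the same 3 control arrays. Within single labelled batches every male difference kept its sign. It was -3.30 and -3.95 in the 2 batches shared by F0 and control males, and from -4.05 to -1.64 over the batches shared by the F1 classes and control.

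Among the F1 males, CG11034 was lower with rpr than with the cyo balancer, the alternatives inherited from the founder father at this place in the genotype. The 6 male arrays with rpr lay at 2.81 to 3.73, with a median of 3.03, and the 6 with cyo at 3.14 to 5.46, with a median of 4.74. Of the 6 pairs of arrays with the same replicate number and the same dilp3 or ser chromosome, 5 were lower with rpr, by 1.20 to 2.43. The exception was replicate 2 of the ser classes, at 3.73 with rpr and 3.14 with cyo. The fitted difference between rpr and cyo males was -1.47 ± 0.24, against 0.03 ± 0.24 between dilp3 and ser males, and the interaction of rpr with dilp3 was -0.11 ± 0.48. The shares of entries called in these 3 male comparisons were 0.229%, 0.933% and 0%. The rpr arrays lay low on the scale, which limits what the interaction can show.

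**Figure D2:**
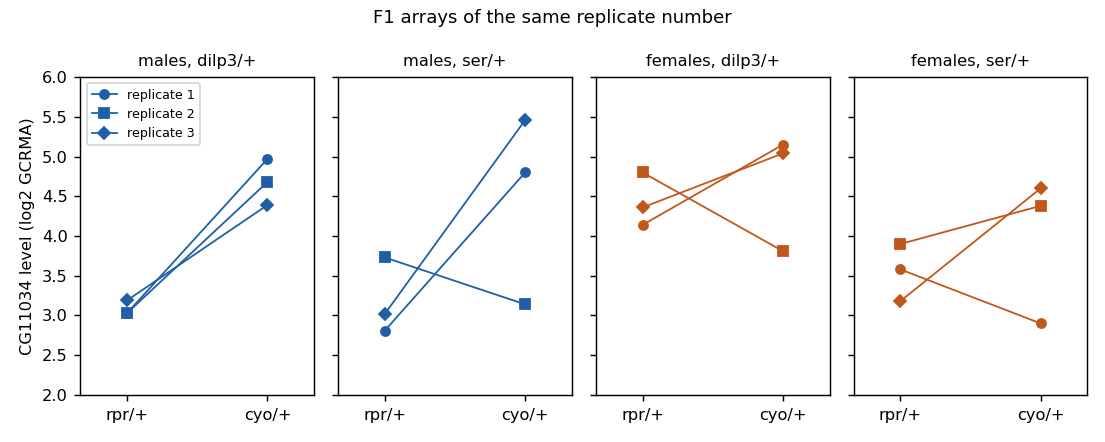
Level of CG11034 (log2 GCRMA) on the F1 test arrays, with lines joining the rpr/+ and cyo/+ arrays of 1 replicate number, by sex and by dilp3/+ or ser/+. In males 5 of 6 lines run upward from rpr/+ to cyo/+; in females the lines run both ways.

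CG11034 was also low in founder females. The F1 control females measured 6.27, 5.24 and 7.57 (6.36 ± 1.17, n = 3), and the F0 test females 3.02, 4.12 and 4.24 (3.79 ± 0.67). No founder array reached the lowest control array, but the control females were spread more widely than the control males. The fitted difference was -2.96 ± 0.49 (95% interval -3.99 to -1.94, limma adjusted p = 0.0019), and the geometric means differed 5.92-fold. In this comparison 0.828% of 12809 entries were called. Within the single batch that held both groups the difference was -3.94, from 2 founder arrays and 1 control array. Without control replicate 3, the highest control array, the fitted difference was -2.27 with a limma adjusted p of 0.054. The 4 measured fat body genes averaged 5.88 to 6.98 in the founder females and 7.01 to 7.42 in control females, and 1 of the 4 fell. Their median fitted difference was -0.98. Without the 2 F2 female arrays that stood apart this median was 0.03, and 0 of the 4 fell. The part of the fat body genes in the result was not tested.

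All 4 classes of F1 test females had low CG11034. The class rpr/+; dilp3/+ measured 4.14, 4.80 and 4.36, and rpr/+; ser/+ measured 3.58, 3.90 and 3.18. The class cyo/+; dilp3/+ measured 5.15, 3.81 and 5.04, and cyo/+; ser/+ measured 2.90, 4.38 and 4.60. The highest of these 12 arrays, at 5.15, lay just below the lowest control array, at 5.24. Group means of 4.43 ± 0.34, 3.55 ± 0.36, 4.67 ± 0.74 and 3.96 ± 0.92 were 3.80-fold, 7.0-fold, 3.23-fold and 5.27-fold below the control mean, in the same order.

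Averaged over the 4 classes, the fitted difference in F1 females was -2.59 ± 0.43 (95% interval -3.48 to -1.71, limma adjusted p = 0.00373), in a comparison that called 1.16% of entries. It stayed below the threshold whichever array was left out, at adjusted p from 0.00155 to 0.0334. Without the 2 F2 female arrays that stood apart it was -2.60 (adjusted p = 0.0326). For the gene on its own, without the batch, an exact two-sided permutation test exchanged the control array only among the 5 female arrays of the same replicate number, since these numbers were taken to pair the female arrays. In this exact test the difference of -2.21 had p = 0.008, the smallest that its 125 arrangements can give. That test was added after the data were seen. Like the limma fit, it treats the 4 class arrays of a replicate number as independent. The classes are siblings, and where they came from 1 cross both p values can be too small.

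Class by class, 3 of the 4 female differences passed the test. All 4, their mean and the F0 difference share the same 3 control females, which spread from 5.24 to 7.57. These results are therefore not independent of each other. In cyo/+; ser/+ females, which carry the balancers alone, CG11034 fell by 2.67 on the log2 scale (SE 0.48, 95% interval -3.66 to -1.68, limma adjusted p = 0.0128), where 0.180% of entries were called. The call rests on single arrays, with adjusted p = 0.123 (-2.07) without control replicate 3 and 0.153 (-2.23) without replicate 1 of the class. Its differences within the 2 batches shared with control were -2.85 and -2.96.

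In rpr/+; dilp3/+ females, which carry both constructs, the difference of -2.05 ± 0.47 (95% interval -3.02 to -1.07) did not pass the test over all genes (limma adjusted p = 0.118), and 0.117% of entries were called. Its differences within the 2 shared batches were -0.95 and -3.32, each resting on 1 array on one side. It passed when both sexes were fitted together (-2.07, adjusted p = 0.0073) and without control replicate 2 (-2.53, adjusted p = 0.0263).

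The classes rpr/+; ser/+ and cyo/+; dilp3/+ shared no batch with the control females, so their fitted differences reach the controls only through other groups. They were -3.39 ± 0.60 (95% interval -4.63 to -2.14, limma adjusted p = 0.0044) and -2.27 ± 0.60 (-3.52 to -1.03, 0.0144), beside 8.55% and 20.4% of entries called. Without the 2 F2 female arrays that stood apart on the yolk and eggshell genes they were -3.39 (adjusted p = 0.0439) and -2.28 (0.11), so that the second no longer passed, and the entries called went from 1095 to 75 and from 2614 to 221. With the replicate number as a block beside the batch, CG11034 no longer passed in either, at -3.76 (adjusted p = 0.0787) and -2.65 (0.208), and the entries called fell to 6 and 11. The yolk and eggshell genes show how far the batch term acts here. Their mean levels as deposited were 11.79 ± 1.35 and 12.01 ± 0.90 in the 2 classes and 11.78 ± 1.38 in the controls, while the fit put their median differences at 5.72 and 5.60, with 8 of 8 rising in both, and without the 2 F2 arrays at 2.88 and 2.76, with none rising. In the full fits 2 and 3 of 5 tubule genes fell, and without the 2 F2 arrays 0 and 1 did. For CG11034 the differences of means without the fit were -2.81 and -1.69, both downward.

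All 5 female calls were lost when only the compared groups entered the fit (adjusted p from 0.405 to 1) and when F2 and F3 arrays were left out (0.1 to 0.525), with values between -3.61 and -1.69.

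**Figure D3:**
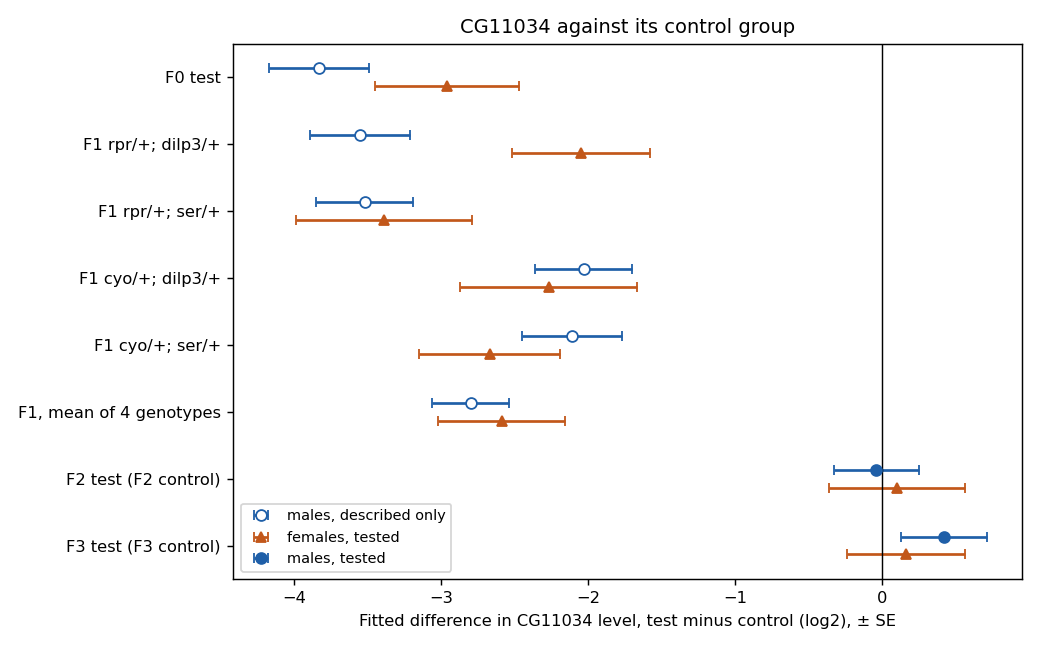
Fitted differences in CG11034 level between test and control arrays (log2, points) with their SE (whiskers), circles for males and triangles for females; open symbols are values described without a test. The F0 and F1 differences lie between -3.83 and -2.03 and the F2 and F3 differences between -0.04 and 0.42.

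Among F1 females the second chromosome did not split the levels as plainly as in males. The 6 arrays with rpr lay at 3.18 to 4.80 and the 6 with cyo at 2.90 to 5.15, and 4 of 6 same-numbered pairs were lower with rpr. The fitted difference was -0.24 ± 0.33 (95% interval -0.94 to 0.45, limma adjusted p = 0.844), in a comparison with 0.234% of entries called. Females with dilp3 were higher than those with ser by 0.87 ± 0.33 (95% interval 0.18 to 1.56), which did not pass over all genes (unadjusted p = 0.0161, limma adjusted p = 0.493; 0.187% called). The interaction was 0.94 ± 0.94 (adjusted p = 0.455), where 31.1% of entries were called with the batch term, 5.18% without the 2 F2 female arrays that stood apart and none with the replicate block.

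Set beside each other, the male and female differences from control lay furthest apart in the class with both constructs. The male difference minus the female difference was -1.49 ± 0.58 in rpr/+; dilp3/+, -0.95 ± 0.58 in F0 flies, -0.42 ± 0.59 in rpr/+; ser/+, -0.04 ± 0.59 in cyo/+; dilp3/+ and 0.51 ± 0.58 in cyo/+; ser/+. These are descriptions, since they rest on the male arrays that chose the gene. F1 control males and females differed by 0.17 ± 0.41 in the same fit of both sexes.

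In the descendants without constructs or balancers, CG11034 stood at control levels. F2 test males measured 7.45, 7.47, 7.43 and 7.25, and F2 control males 7.84, 7.16, 7.51 and 7.23. F2 test females measured 7.63, 8.32 and 7.72, and their controls 7.52, 8.46 and 7.40. Test and control arrays overlapped in both sexes, and every F2 array lay above the highest F0 or F1 test array. The fitted differences were -0.04 ± 0.29 in males (95% interval -0.63 to 0.56) and 0.10 ± 0.46 in females (-0.86 to 1.06), both with limma adjusted p = 1. Without the 3 arrays that stood apart on the yolk and eggshell genes they were -0.03 in males and 0.21 in females (adjusted p = 1 in both). CG11034 measured 7.51 on that control male array, 8.46 on that control female array and 8.32 on that test female array, the last 2 being the highest of their groups.

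In F3 the arrays overlapped again. F3 test males measured 7.25, 7.14, 7.14 and 7.15 against 6.48, 6.75, 6.54 and 7.24 in control males, 3 of which lay below all test arrays. F3 test females measured 6.86, 7.19, 7.78 and 7.45, and their controls 7.03, 6.77, 7.50 and 7.33. The differences were 0.42 ± 0.29 in males (95% interval -0.17 to 1.01) and 0.16 ± 0.40 in females (-0.67 to 0.99), with limma adjusted p = 1 in both. In all 4 F2 and F3 comparisons 0% of entries were called by limma, while unadjusted p under 0.05 was met by 97 and 54 entries in F2 and F3 males and by 20 and 27 in F2 and F3 females. The lowest of the 4 lower interval bounds, -0.86, lies above the fitted difference of every F0 and F1 group. The F2 and F3 effects differed between the sexes by -0.13 ± 0.53 and 0.26 ± 0.49 (adjusted p = 1 in both).

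Males and females were compared in the 5 groups that the choice of the gene did not use. Males minus females gave -0.53 ± 0.38 in F2 controls (limma adjusted p = 0.274), -0.66 ± 0.38 in F2 test flies (0.152), -0.60 ± 0.36 in F3 controls (0.157), -0.34 ± 0.36 in F3 test flies (0.465) and -0.78 ± 0.42 in F0 test flies (0.132). The gene was lower in males in all 5 groups but passed in none, in comparisons where 51.9%, 53.5%, 61.7%, 63.5% and 43.7% of entries were called, in the same order. Without the 3 F2 arrays that stood apart, the F2 differences were -0.32 (0.647) and -0.59 (0.279). Without F0 female replicate 1, the lowest founder female, the F0 difference was -1.14 (adjusted p = 0.0361).

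Ordered by mean, the 10 F0 and F1 test groups came first and the 10 w1118 groups after them. The lowest were F0 males at 2.81, rpr/+; dilp3/+ males at 3.08 and rpr/+; ser/+ males at 3.19, and the highest were F2 control and F2 test females at 7.79 and 7.89. Of the 19 steps between neighbours in this order, 2 separated the arrays of both groups. One was the small step from F0 males to rpr/+; dilp3/+ males (0.27) and the other the step from cyo/+; dilp3/+ males to F1 control females (1.68). In all other steps the arrays of neighbouring groups overlapped.

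Of the 5 genes of the DPP4 kind measured besides CG11034, CG45002 stayed near the lowest value (at most 2.97 on any array) and was not tested. The other 4 were tested in both sexes, and none was called in males in any comparison, where the share of all entries called was 0% to 3.43%, so that 0 of 4 is what this share gives. In the mean of the 4 F1 classes their male differences ran from -0.41 to 0.45, with a median of 0.02 beside -0.01 over all entries. The gene ome (omega), the fly's characterised DPP4 enzyme gene, measured 9.03 ± 0.21 in control males, 8.36 ± 0.20 in F0 males and 8.44 ± 0.54 in rpr/+; dilp3/+ males. Its fitted differences there were -0.68 ± 0.27 (limma adjusted p = 0.215) and -0.59 ± 0.27 (0.873). The 3 other probe sets of ome stayed near the bottom of the scale.

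In females, ome passed the test in rpr/+; ser/+ (-2.63 ± 0.44, limma adjusted p = 0.0035), in cyo/+; dilp3/+ (-2.98 ± 0.44, 0.000573) and in the mean of the 4 classes (-1.63 ± 0.31, 0.014). Dpp10, the fly relative of the channel-partner members, passed in cyo/+; dilp3/+ (-3.17 ± 0.73, 0.00791). The first 2 are the classes with no batch in common with the controls, where 8.55% and 20.4% of entries were called. Without the 2 F2 female arrays that stood apart, ome passed in cyo/+; dilp3/+ (-2.57, 0.0153) but not in rpr/+; ser/+ (-2.22, 0.0507) or in the mean (-1.38, 0.115), and Dpp10 did not pass (-1.79, 0.155). The deposited levels of ome, 7.57 ± 1.04 in control females, 7.48 ± 1.30 and 7.13 ± 0.76 in the 2 classes, differed by less than the spread between arrays. Those of Dpp10 were 4.54 ± 1.23 in control females and 3.35 ± 1.00 in cyo/+; dilp3/+, and the arrays overlapped. In F0 females none of the 4 was called, beside 0.828% of all entries. Their differences ran from -1.26 in CG17684 to -0.27 in Dpp10, with CG3744 at -0.44 and a median of -0.68 beside a median of 0 over all entries. In F2 and F3 none was called in either sex.

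The list of other peptidases that act on peptides held 15 measured genes. In F0 males 1 of 15 fell, where 3.43% of all entries were called, Ance (a relative of angiotensin-converting enzyme), by 0.62 (SE 0.16, limma adjusted p = 0.026). In F1 males none passed against control, where 0.22% to 0.484% of all entries were called in the single classes. Dip-C, a predicted dipeptidase gene, was higher with dilp3 than with ser in F1 males by 0.50 ± 0.12 (limma adjusted p = 0.0347), beside 0.933% of all entries called. The Dip-C call was kept in 13 of 22 alternatives, and the Ance call in F0 males in 10 of 16. In cyo/+; dilp3/+ females 3 of 15 fell, the neprilysin genes Nep3 (-2.08 ± 0.64, 0.0288) and Nep4 (-0.97 ± 0.32, 0.0368) and Ance (-1.20 ± 0.40, 0.0379), and the aminopeptidase gene grsm rose by 0.71 ± 0.22 (0.0281). This is 4 of 15 called beside 20.4% of all entries, in the class that shares no batch with the controls. Without the batch term the difference of Nep3 was 0.48, and its deposited level was higher in the class (5.75 ± 0.95) than in control females (5.27 ± 1.39). Without the 2 F2 female arrays that stood apart none of the 4 passed, at adjusted p from 0.274 to 0.507. None of the 15 passed in F0 females or in the other F1 female classes. The shares of all entries called there were 0.828% in F0, 0.117% in rpr/+; dilp3/+, 8.55% in rpr/+; ser/+ and 0.18% in cyo/+; ser/+. In the female interaction, where 31.1% of all entries were called, 2 of 15 were positive (Ance 2.28 ± 0.62, adjusted p = 0.0104, and Nep3 4.60 ± 1.00, 0.00326) and grsm negative (-1.31 ± 0.34, 0.00829). None of these 3 passed without the 2 F2 female arrays (adjusted p from 0.081 to 0.233), and without the batch term Nep3 was at -0.09.

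Of the measured genes nearest to CG11034 on arm 2L, none was called in males. The order of genes was taken from RefSeq annotation of assembly Release 6 plus ISO1 MT. The 4 nearest measured genes on one side were CG7239, CG14005, CG31913 and asRNA:CR31912, and on the other COX6CL, TrissinR, rau and CG9029. On the first side these are the 4 genes next to it, and on the other the 4th, 5th, 6th and 10th, so the nearest 3 there were not measured here. In males 6 of the 8 were tested, without asRNA:CR31912 and TrissinR, and none was called in any comparison, beside 0% to 3.43% of all entries. Their differences in the mean of the 4 F1 classes ran from -0.20 to 0.15, and in F0 males from -0.63 in CG7239 to 0.83 in rau. The closest on the one side, CG7239, measured 4.91 ± 0.22 in control males and 4.35 ± 0.42 in F0 males. COX6CL, a cytochrome c oxidase subunit gene and the closest measured on the other side, measured 9.16 ± 0.43 and 9.37 ± 0.41.

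In females 5 neighbours were tested, and none was called in F0, rpr/+; dilp3/+ or cyo/+; ser/+ flies, beside 0.828%, 0.117% and 0.18% of all entries. In rpr/+; ser/+ females 1 of 5 fell, rau (-1.60 ± 0.47, limma adjusted p = 0.0393), and in cyo/+; dilp3/+ females 1 of 5 rose, CG14005 (1.97 ± 0.67, 0.0417), beside 8.55% and 20.4% of all entries called. Neither passed without the 2 F2 female arrays that stood apart (-1.63, 0.165, and 0.84, 0.534). The female interaction called rau and CG7239, 1 in each direction, beside 31.1% of all entries, and without those arrays rau alone (3.22, 0.0418). The deposited levels of rau were 6.57 ± 1.33 in rpr/+; ser/+ and 6.73 ± 0.87 in control females, and those of CG14005 were 8.66 ± 0.44 in cyo/+; dilp3/+ and 8.49 ± 0.52 in control females. Both differences of means were smaller than the spread between arrays.

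**Figure D4:**
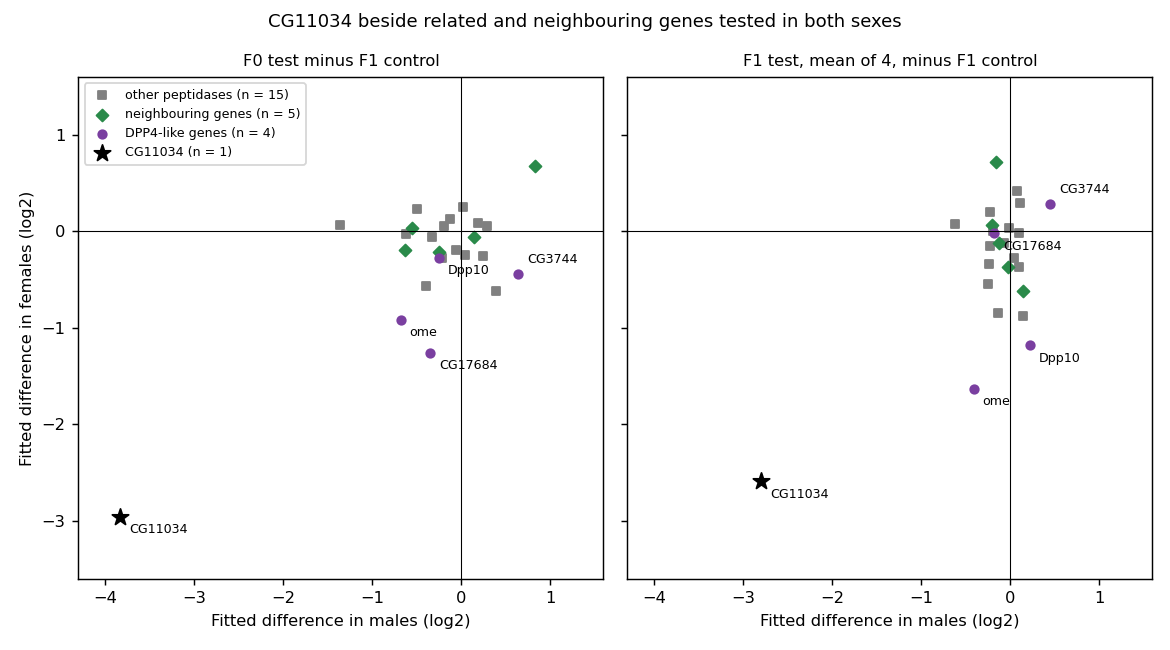
Fitted differences (log2) in males (horizontal axis) and females (vertical axis) for CG11034, 4 other DPP4-like genes, 5 neighbouring genes and 15 other peptidase genes tested in both sexes, for F0 test flies (left) and the mean of the 4 F1 test classes (right). CG11034 lies at -3.83 and -2.96 on the left and at -2.80 and -2.59 on the right, away from the other genes drawn.

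Genes whose levels followed CG11034 most closely were ranked by Pearson's r over the 18 F0 and F1 male arrays, among 9815 genes. The 5 highest were CG2065 (r = 0.85), ETH, the ecdysis triggering hormone gene (0.84), CG4988 (0.83), mthl8 (0.83) and the cytochrome P450 gene Cyp6g2 (0.81). The 3 lowest were oaf (-0.81), CG5188 (-0.80) and CG18563 (-0.80). These r values are descriptions, since the genes were chosen by them and the arrays share the contrast of test with control flies. CG11034, CG4988, oaf, CG5188 and CG18563 lie on arm 2L, CG2065, ETH and Cyp6g2 on arm 2R and mthl8 on arm 3L.

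The likeness carried over to the 18 F0 and F1 female arrays in part. There r was 0.59 for mthl8, 0.45 for ETH, 0.29 for CG2065, 0.28 for CG4988 and 0.06 for Cyp6g2. Among the opposite genes it was -0.62 for CG18563, -0.25 for CG5188 and -0.10 for oaf. Over the F2 and F3 arrays, in which CG11034 varied little, the order was another. For mthl8 the sign turned, with r of -0.58 in 16 male and -0.52 in 14 female arrays, and for CG18563 it turned to 0.26 and 0.12.

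**Figure D5:**
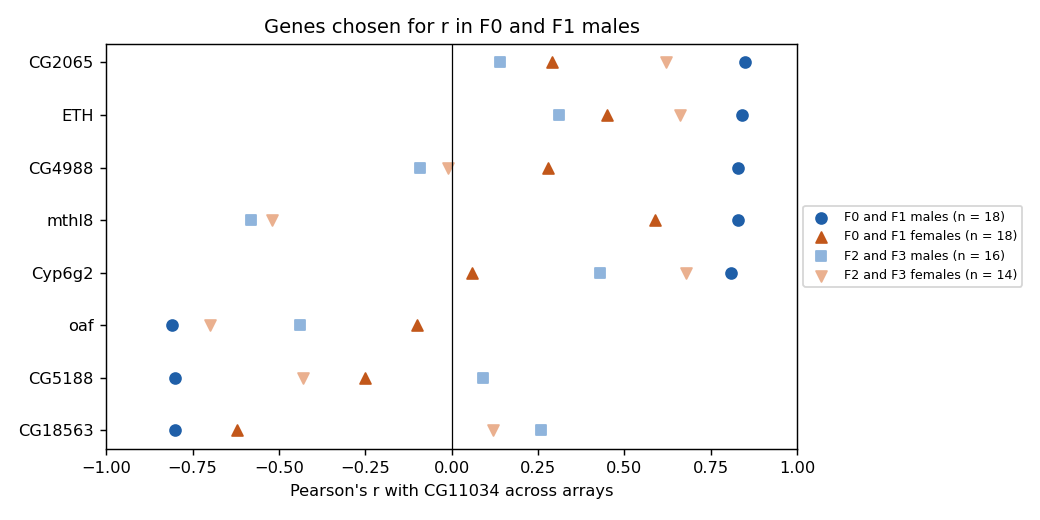
Pearson's r with CG11034 across arrays for the 5 genes most like it and the 3 most opposite in F0 and F1 males, in 4 sets of arrays. The dark circles, which chose the genes, lie near 0.8 and -0.8, and the other symbols are spread between -0.70 and 0.68.

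Of the 5 genes most like CG11034 in males, mthl8 had the highest r in females. It measured 5.88 ± 0.62 in control females and 3.15 ± 0.58 in F0 females, a fitted difference of -2.78 ± 0.27 (limma adjusted p = 2.2e-06). In the F1 females it fell by 1.25 on the mean of the 4 classes (SE 0.24, 0.0134), by 1.57 in rpr/+; ser/+ (0.011) and by 1.15 in cyo/+; dilp3/+ (0.0218), and its differences in rpr/+; dilp3/+ and cyo/+; ser/+ were -1.05 ± 0.26 (0.208) and -1.21 ± 0.26 (0.058). The F0 call held without the 2 F2 female arrays that stood apart (-2.67, 1.4e-05), and the F1 calls did not (-1.09, 0.108, on the mean, -1.31, 0.112, and -0.88, 0.237). Its male means were 5.68 ± 0.44 in controls, 2.40 ± 0.14 in F0 flies and 3.78 to 4.44 in the F1 classes.

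CG18563 ran the other way, from 4.24 ± 1.81 in control females to 7.34 ± 0.54 in F0 females, a rise of 3.85 ± 0.82 (limma adjusted p = 0.0198, and 0.0342 without the 2 F2 arrays). CG2065 fell in F0 females by 2.28 (SE 0.53, adjusted p = 0.0378), and its differences were -2.74 in rpr/+; ser/+ (0.0162) and -2.20 in cyo/+; dilp3/+ (0.0221). These calls were not stable. The F0 call was kept in 5 of 16 alternatives and each class call in 8 of 16, and none of the 3 passed without the 2 F2 female arrays (0.075, 0.118 and 0.18). The deposited levels of CG2065 were 6.47 ± 1.03 in control females, 4.49 ± 1.17 in F0 females, 5.32 ± 1.01 in rpr/+; ser/+ and 5.86 ± 0.54 in cyo/+; dilp3/+. ETH, CG4988 and oaf were called in no F0 or F1 comparison of females with control. Cyp6g2 was called in rpr/+; ser/+ (-1.62, 0.0424) and cyo/+; dilp3/+ (-2.25, 0.00578), and CG5188 in the same 2 classes (1.21, 0.0118, and 1.25, 0.00472) and in the mean of the 4 (0.79, 0.0386). Of these 5 calls 1 held without the 2 F2 female arrays, that of CG5188 in cyo/+; dilp3/+ (1.29, 0.0403). Of the 8 genes, none was called in F2 or F3 females.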

How the data were processed

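The values used are log2 expression levels, 1 per probe set and array, that the authors deposited after GCRMA, per the submitters' processing notes. Those notes also name limma 3.46.0 without its use. Since arrays give no counts, precision is limited by how many arrays each group has. The authors' 183 control probe sets were left out. Symbols came from the platform annotation (13647 probe sets with 1 gene, 402 with several, 4720 with none), and a gene with several probe sets was represented by the one of highest mean, giving 17104 entries. Entries above the 40th percentile of a sex's values (2.51 in females, 2.63 in males) in at least 3 arrays were tested.

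For each sex, 1 linear model in limma 3.58.1 (R 4.3.3) held every group and a term for the 4 labelled batches (residual degrees of freedom 19 for females, 21 for males). Sex differences came from 1 fit of all 66 arrays. An entry was called where its p, adjusted over the whole comparison by Benjamini-Hochberg, was under 0.05. Values are fitted differences ± SE, and levels are mean ± SD of the arrays. A fit without the 3 arrays that lay more than 3 (log2) from the median of their sex on the yolk and eggshell genes was added after the data were seen. The script was tested on simulated data. Figures were drawn with matplotlib 3.10.9.

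The gene, the gene lists and the tests were chosen with earlier results of these data known. Named are CG11034, the DPP4-like list, called genes of the peptidase list, the 4 nearest measured genes on each side, and the 5 most like and 3 most opposite genes by r. The labels give replicate numbers without saying what a number shares. Deviations of same-numbered arrays from their group means correlated at over 0.1 in every pair of the 7 female comparisons and of 5 of 7 male comparisons. The exceptions were F0 males (lowest -0.07) and rpr/+; dilp3/+ males (lowest 0). In the other comparisons the numbers were taken to pair the arrays of that comparison. A fit with the replicate number as a block was run beside the main fit. That block gave a number the same term in all groups of a sex, across generations. The correlations were taken only between the groups of a comparison. The block therefore does not pair test with control arrays, and calls lost or gained with it are no test of that pairing. The design text calls the samples biological replicates. No sequences are shown.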

Additional observations from a re-analysis of the deposited data

Results flagged for a closer look

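CG11034 on replicate 1 of the F3 test males measured 7.25 and stood apart from the other 3 arrays of its group, which lay at 7.14 to 7.15. The gap made up 0.94 of the group's range. The SD of the group was 0.05, against 0.09 to 1.19 in the other male groups of 3 or 4 arrays. The 6 groups of 4 arrays were examined in this way, and chance marks about 1 in 20 such groups.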

How the results depend on the processing

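Of 543 alternative values of the 29 CG11034 results, 516 were scored as unchanged. For the tested results this meant the same direction and the same side of the threshold. For the male results described without a test it meant a move of less than 0.48, the SD of the control males, whatever the sign. The male difference between dilp3 and ser, for example, ran from -0.27 to 0.24 when 1 array was left out. Replicate block, a term for the number over all groups of a sex and not a pairing of test with control arrays: rpr/+; ser/+ females -3.76 and cyo/+; dilp3/+ females -2.65, not called. The block changed no other call of CG11034. It moved the entries called by over 1.5 times in F0 (106 to 171 in females, 390 to 764 in males), in the other F1 comparisons of females (mean of the classes 148 to 14, cyo/+; ser/+ 23 to 42, dilp3 against ser 24 to 42, interaction 3982 to 0) and in F1 males (25 to 53, 55 to 124, 32 to 65, 45 to 199, mean 45 to 84, rpr against cyo 26 to 74, dilp3 against ser 106 to 481). Leaving out the 3 F2 arrays that stand apart on the yolk and eggshell genes, an alternative added after the data were seen: cyo/+; dilp3/+ females -2.28, not called, and no other call of CG11034 changed; the entries called in F1 females went from 15 to 24, 1095 to 75, 2614 to 221, 23 to 48, 148 to 36 (mean), 24 to 43 (dilp3 against ser) and 3982 to 663 (interaction). No batch term: cyo/+; dilp3/+ females -1.69, not called. Compared groups alone, females, none called: F0 -2.57, rpr/+; ser/+ -2.81, cyo/+; dilp3/+ -1.69, cyo/+; ser/+ -2.40, mean -2.21. Arrays of F0 and F1 alone, females, none called: -3.27, -3.61, -2.50, -2.81 and -2.79 in the same order. Both settings have fewer arrays, and fewer entries were called in each of these comparisons. Both sexes in 1 fit: rpr/+; dilp3/+ females -2.07, called. Quantile normalization: F0 males minus females -1.36, called. F2 and F3 arrays alone: F3 control males minus females -0.56, called. Leaving out 1 array in turn, the lowest and highest values were, in females, F0 -3.43 and -2.27, rpr/+; dilp3/+ -2.53 and -1.39, cyo/+; ser/+ -3.18 and -2.07 and F3 -0.07 and 0.39; in males, cyo/+; ser/+ -2.56 and -1.53, the interaction -0.59 and 0.45 and F2 -0.19 and 0.06; and for F0 males minus females -1.14 and -0.55. Nep3 turned its sign without the batch term and in the compared groups alone, at 0.48 in cyo/+; dilp3/+ females and -0.09 in the interaction. The cause of these changes was not tested.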
